A study of Mus musculus with 21 samples.

Results

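Flt1, the gene of vascular endothelial growth factor (VEGF) receptor 1, was examined together with 8 genes of secreted factors linked to tissue repair and blood vessel growth: Pgf, Pdgfa, Pdgfb, Pdgfc, Igf1, Tgfb1, Hbegf and Gdf15. They were taken by name from the count table, as 9 of its 47069 genes, and each name matched 1 row. The libraries came from mouse macrophages grown from bone marrow in M-CSF-conditioned medium (5 days) and then kept for 36 h with a cytokine or with none. All 21 libraries were of the C57BL/6 strain and formed 7 groups of 3. Wild-type cells were left without cytokine or given IL-33 or IL-4. The cells labelled ST2-/-, which by that label lack the IL-33 receptor chain ST2, received no cytokine or IL-33. Cells labelled Cx3cr1CRExGata3fl/fl, called Gata3-floxed here, received no cytokine or IL-33. In these cells a Cre recombinase driven by Cx3cr1, a gene active in monocytes and macrophages, acts on floxed alleles of the transcription factor gene Gata3. The labels do not say whether the libraries of a group came from separate animals, so p-values rest on the spread between libraries, which may be technical alone.

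Growth factors made by macrophages act on neighbouring endothelial cells, fibroblasts and epithelial cells during wound healing. FLT1 binds VEGF-A, VEGF-B and placental growth factor (PlGF, from Pgf) with high affinity, signals weakly compared with VEGF receptor 2, and is also made as a soluble form that holds VEGF away from that receptor. IL-4 signals through STAT6 and is the classical inducer of alternatively activated, repair-associated macrophages, whereas IL-33 signals through ST2 and MyD88.

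Each library held between 32626469 and 48743646 counted reads, and all 9 genes passed the filter that left 14473 genes for testing. Levels are given as CPM, counts rescaled to a common library size with TMM factors, as mean ± SD over 3 libraries. Changes are log2 fold changes ± SE from edgeR's quasi-likelihood fit of all libraries. Genes with an adjusted p under 0.05 are named as called. The gene-level counts did not check the genotype labels. Il1rl1, the gene of ST2, was not lower without cytokine in the ST2-/- libraries (17.4 ± 2.95 CPM) than in the wild-type ones (15.7 ± 1.45 CPM), and counts over a whole gene say nothing of a deleted part. Gata3 was near the detection limit, with 17 reads summed over the unstimulated wild-type libraries and 32 over the unstimulated Gata3-floxed ones. The 6 Gata3-floxed libraries carried Xist, an RNA of female cells, at 277 to 376 CPM, and the other 15 libraries at no more than 0.0462 CPM, so this genotype and sex cannot be told apart. All 10 macrophage markers listed (Csf1r, Adgre1, Lyz2 and others) were detected in every group, with Lyz2 the most abundant. Their summed level in wild-type libraries was 28430 to 31344 CPM without cytokine, 37458 to 41425 CPM with IL-33 and 14964 to 16524 CPM with IL-4. With IL-33 5 of the 10 rose and 2 fell, and with IL-4 3 rose and 6 fell (median log2 -0.81), and the part of this in the changes below was not tested. Over all genes tested, 35.4% were called with IL-33 and 47.6% with IL-4. In RNA from a whole culture, a change in the share of cells that express a gene and a change in the RNA per cell cannot be told apart.

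IL-33 raised Flt1, Pgf, Pdgfa, Pdgfc, Igf1 and Hbegf in wild-type cells and lowered Pdgfb. These were 7 of the 9 genes, against 35.4% of all genes tested (18.5% higher and 16.9% lower). The median log2 change of the 9 genes was 0.78, beside -0.00 over all genes tested. IL-4 raised 5 of the 9, namely Flt1, Pgf, Pdgfa, Igf1 and Hbegf, against 47.6% of all genes (25.1% higher and 22.5% lower), with a median log2 change of 1.11, beside 0.00 over all genes. The cytokines differed in which factor they raised most. Flt1 and Hbegf rose far more with IL-4, Pgf and Pdgfc were higher with IL-33, and Igf1 rose with both. IL-33 against IL-4 called 3 of the 9 genes as higher and 4 as lower, against 39.9% of all genes (19.2% higher and 20.7% lower). In cells labelled ST2-/-, IL-33 called none of the 9 genes by edgeR and none had an unadjusted p under 0.05, and DESeq2 and limma-voom also called none. Over all genes, edgeR called 0 of 14473 there (0%) and 507 had an unadjusted p under 0.05. In Gata3-floxed cells IL-33 called 5 of the 9 genes, against 33.4% of all genes (17.1% higher and 16.3% lower): Pgf, Pdgfc, Igf1 and Gdf15 rose and Pdgfb fell.

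**Figure D1:**
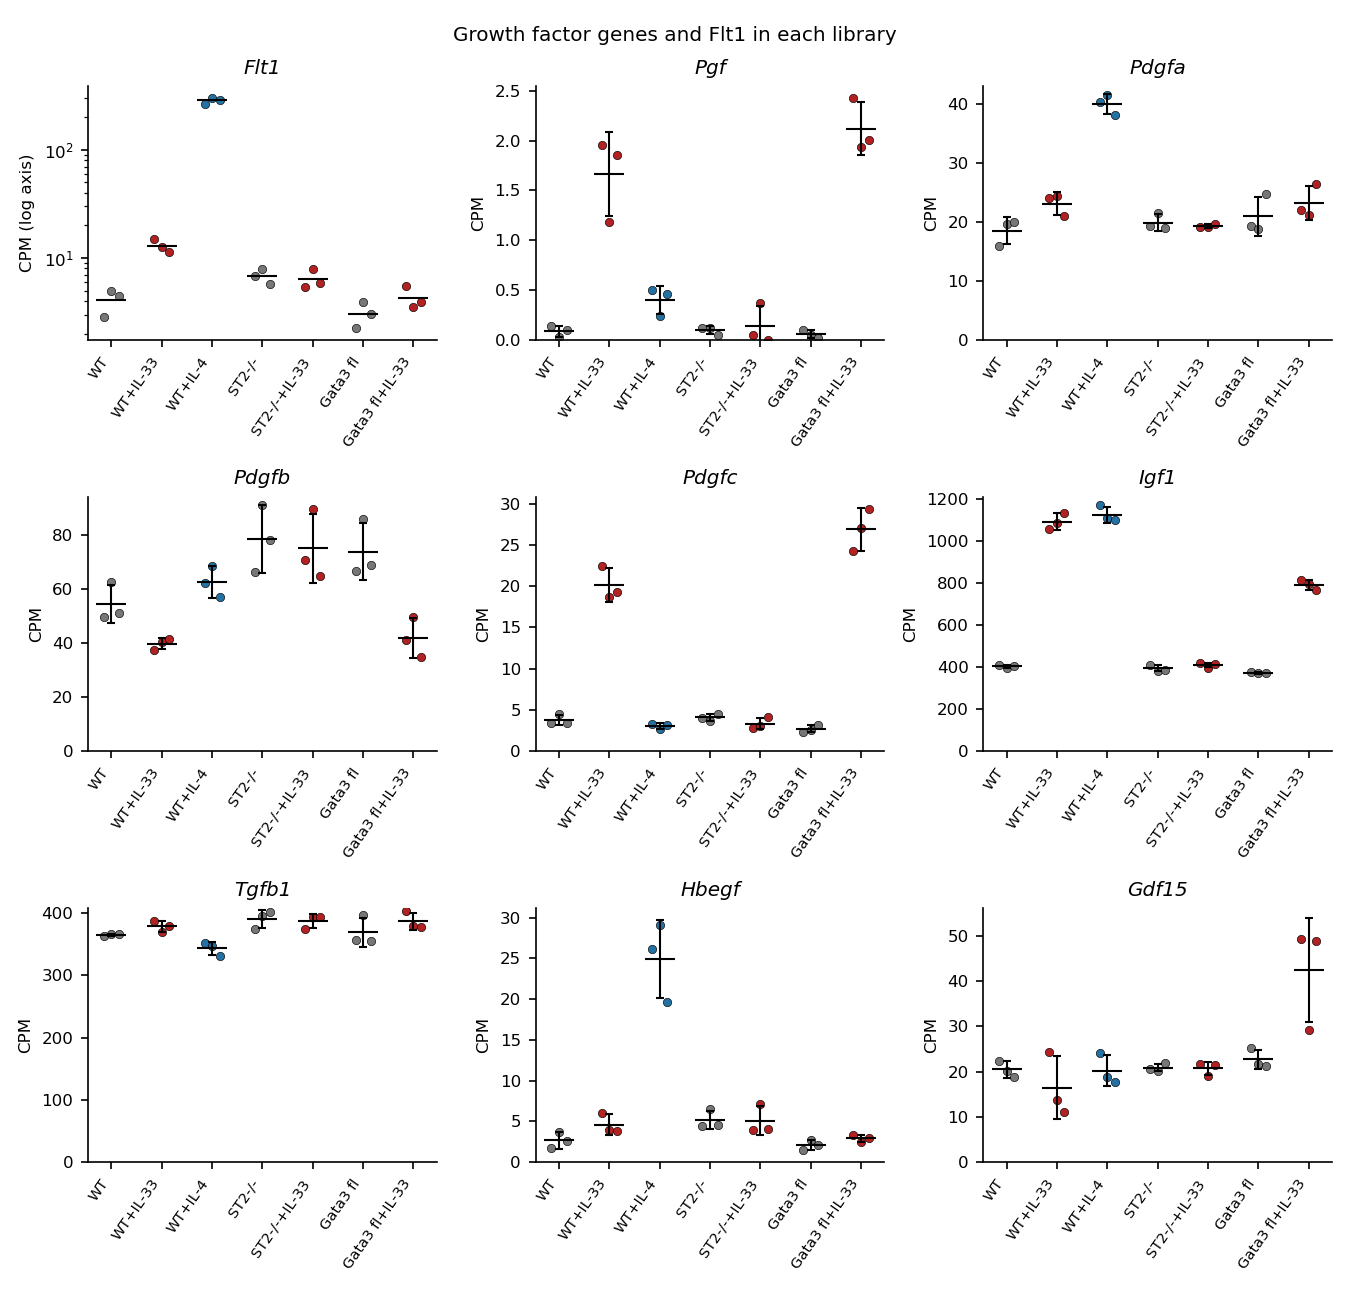
Level of each gene in every library in CPM (Flt1 on a log axis without error bars, the other axes starting at 0), with a horizontal line at the mean of each group of 3 and bars of 1 SD, cut at 0; grey points had no cytokine, red points IL-33 and blue points IL-4. Flt1 reached 287 CPM with IL-4, Pdgfc stood at 20.1 and 26.9 CPM with IL-33 in wild-type and Gata3-floxed cells and at 3.33 CPM in cells labelled ST2-/-.

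**Figure D2:**
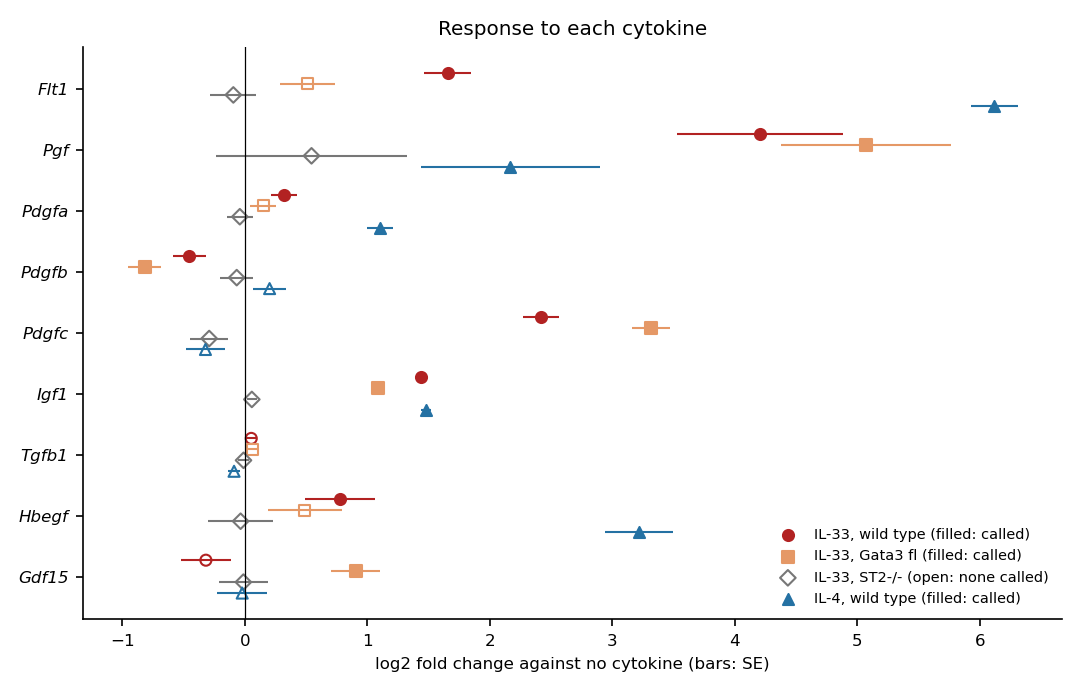
Log2 fold change of each gene against the unstimulated cells of its own genotype, with bars of 1 SE; filled symbols mark an adjusted p under 0.05 and open symbols the rest. The IL-33 responses of cells labelled ST2-/- are all open and lie around 0, from -0.29 for Pdgfc to 0.54 for Pgf.

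The starts of Flt1, Pgf, Pdgfc and Igf1 are printed because these are the 4 genes whose response to IL-33 differed between cells labelled ST2-/- and the wild type. Each window runs from 250 bases before to 50 bases after the start in RefSeq on assembly GRCm38.p6, on the strand of the gene, 5′ to 3′. Of the 9 genes, 7 had a window in that table. The windows lie at chr5:147725962-147726261 on the minus strand for Flt1, chr12:85177264-85177563 on the minus strand for Pgf (the more upstream of 2 windows listed), chr3:81036166-81036465 on the plus strand for Pdgfc and chr10:87860861-87861160 on the plus strand for Igf1. The windows of Igf1 and Pgf lie wholly inside these genes as positioned by GENCODE M21, given below, so for them the RefSeq start is not the outermost start. Capitals mark the matches to any of the motifs searched.
Flt1: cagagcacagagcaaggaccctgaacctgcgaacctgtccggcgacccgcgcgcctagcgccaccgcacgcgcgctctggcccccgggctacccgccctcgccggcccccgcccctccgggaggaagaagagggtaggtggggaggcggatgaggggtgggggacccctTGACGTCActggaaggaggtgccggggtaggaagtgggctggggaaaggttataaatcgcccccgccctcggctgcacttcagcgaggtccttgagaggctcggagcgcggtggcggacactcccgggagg
Pgf: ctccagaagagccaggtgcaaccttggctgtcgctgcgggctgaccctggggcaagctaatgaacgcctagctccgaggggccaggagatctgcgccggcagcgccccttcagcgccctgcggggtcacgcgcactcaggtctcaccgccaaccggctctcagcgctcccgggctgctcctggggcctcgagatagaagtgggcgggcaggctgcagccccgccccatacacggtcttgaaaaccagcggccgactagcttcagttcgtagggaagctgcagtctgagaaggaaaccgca
Pdgfc: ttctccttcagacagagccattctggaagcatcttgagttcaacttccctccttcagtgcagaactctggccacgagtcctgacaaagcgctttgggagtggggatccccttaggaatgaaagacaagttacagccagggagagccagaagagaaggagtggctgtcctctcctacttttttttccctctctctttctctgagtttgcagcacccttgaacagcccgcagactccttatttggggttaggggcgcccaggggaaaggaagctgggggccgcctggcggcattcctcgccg
Igf1: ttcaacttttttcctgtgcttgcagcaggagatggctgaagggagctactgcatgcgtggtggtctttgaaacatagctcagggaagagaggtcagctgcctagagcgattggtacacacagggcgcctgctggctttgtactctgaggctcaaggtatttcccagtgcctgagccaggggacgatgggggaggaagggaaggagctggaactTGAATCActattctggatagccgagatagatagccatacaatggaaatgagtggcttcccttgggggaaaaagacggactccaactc
6 motifs were searched on both strands. They were the STAT6 motif (TTC and GAA with 4 bases between them), the AP-1 motif TGANTCA and the CRE motif TGACGTCA. The hypoxia core was searched as ACGTG and the NF-kB motif is given by name alone. The GATA motif was taken as AGATAA. The Flt1 window held TGACGTCA, starting at position -81 from the gene start, a motif present in 1.79% of 32851 such windows. The Igf1 window held TGAATCA at position -37 from its RefSeq start, a match to the AP-1 letters, which occur in 7.81% of windows. The Pgf and Pdgfc windows held none of the 6 motifs, whose shares over all windows were 6.95% for STAT6, 19.6% for the hypoxia core, 0.411% for NF-kB and 11.2% for GATA. The Flt1 window was 70.7% G or C with 29 CpG, that of Igf1 52.3% with 6 CpG, and the median over all windows was 52.7% with 7. A match is a run of letters and was not tested as a binding site.

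Flt1 (ENSMUSG00000029648, protein-coding, GRCm38 chromosome 5, 147561604 to 147726011, minus strand) had the largest change of the 9 genes, in response to IL-4. Unstimulated wild-type libraries held 2.87, 4.98 and 4.48 CPM, those with IL-33 held 15.0, 12.7 and 11.3 CPM, and those with IL-4 held 263, 305 and 292 CPM. The groups did not overlap, and every IL-4 library lay far above every IL-33 library. The rise was 3.15-fold with IL-33 (log2 1.65 ± 0.19, adjusted p = 3.85e-07) and 69.4-fold with IL-4 (log2 6.12 ± 0.19, adjusted p = 7.08e-17). IL-33 cells stood 22.0-fold below IL-4 cells (log2 -4.46 ± 0.17, adjusted p = 3.33e-15). Gene-level counts do not separate the mRNA of the membrane receptor from that of its soluble form.

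In cells labelled ST2-/-, Flt1 stood at 6.81, 7.84 and 5.80 CPM without cytokine and 5.35, 7.93 and 5.91 CPM with IL-33, and these groups overlapped. In Gata3-floxed cells it stood at 2.23, 3.93 and 3.01 CPM without cytokine and 5.47, 3.51 and 3.89 CPM with IL-33, which also overlapped (log2 0.51 ± 0.22, adjusted p = 0.0874; 0.0270 without replicate 2 of the unstimulated Gata3-floxed cells). With IL-33 present, the Gata3-floxed libraries were all below the wild-type ones (4.29 ± 1.04 against 13.0 ± 1.86 CPM, log2 -1.59 ± 0.19, adjusted p = 6.61e-06). Across the 7 groups, the 5 lowest means each overlapped their neighbour in order, from 3.06 CPM in unstimulated Gata3-floxed cells to 6.81 CPM in unstimulated ST2-/- cells. Wild-type cells with IL-33 and then with IL-4 stood apart above them.

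Pgf (ENSMUSG00000004791, chromosome 12, 85166635 to 85177790, minus strand) encodes PlGF, a ligand of FLT1 that does not bind VEGF receptor 2. It was close to undetected without cytokine: the unstimulated wild-type libraries held 5, 1 and 4 reads (0.137, 0.0259 and 0.1002 CPM). With IL-33 they held 74, 48 and 66 reads (1.96, 1.18 and 1.86 CPM), and with IL-4 16, 10 and 21 reads (0.506, 0.242 and 0.466 CPM). The 3 groups did not overlap, and IL-33 gave the higher level. The summed counts differed 19.0-fold between IL-33 and no cytokine, with a 95% interval of 10.1 to 40.2 that covers counting error only. The fitted log2 change was 4.21 ± 0.68 with IL-33 (adjusted p = 3.15e-05) and 2.17 ± 0.73 with IL-4 (adjusted p = 0.0179). The IL-4 call was lost when any of 3 libraries was left out: replicate 2 of the unstimulated cells (adjusted p = 0.0822) or replicates 1 or 3 of the IL-4 cells (0.0524 and 0.0516).

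In Gata3-floxed cells Pgf also rose with IL-33, from 5, 2 and 1 reads to 90, 64 and 70 reads (0.0579 ± 0.0393 to 2.12 ± 0.264 CPM). The summed counts differed 35.1-fold (95% counting interval 17.5 to 82.3; log2 5.07 ± 0.69, adjusted p = 4.74e-06). Cells labelled ST2-/- held 5, 6 and 2 reads without cytokine and 2, 16 and 0 reads with IL-33. The 16 reads in replicate 2 lie above the unstimulated range and the other IL-33 libraries at or below its lowest value. Without that library the fitted log2 change turned from 0.54 to -1.84, neither of them called.

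The other VEGF ligands and receptors were a list of 8 genes of which 7 were tested. With IL-33 in wild-type cells 1 rose and 4 fell (median log2 -0.31), and with IL-4 1 rose and 3 fell (median -0.58). The shares of all genes that fell were 16.9% for IL-33 and 22.5% for IL-4. Kdr, the gene of VEGF receptor 2, stood at 21.3 ± 3.84 CPM without cytokine, and IL-33 cells held 9.75 ± 0.954 CPM and IL-4 cells 8.24 ± 1.47 CPM. It fell by 1.12 ± 0.17 and 1.37 ± 0.18 on the log2 scale (adjusted p = 1.89e-05 and 8.79e-07), opposite in direction to Flt1. Vegfc, a ligand of VEGF receptor 3 known for lymphatic growth, fell with IL-33 from 4.91 ± 0.947 to 0.733 ± 0.278 CPM (log2 -2.73 ± 0.29, adjusted p = 1.40e-07) and stood at 4.06 ± 0.127 CPM with IL-4, where it was not called (adjusted p = 0.392).

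The neuropilins, co-receptors that bind VEGF and PlGF, split: Nrp1 fell with both cytokines (log2 -0.31 for IL-33, -0.58 for IL-4), and Nrp2 rose with both (0.50 and 0.45). Vegfb, a ligand of FLT1, fell with both (-0.46 and -0.68). Vegfa, the main VEGF and a ligand of both receptors, was 123 ± 10.8, 140 ± 4.99 and 118 ± 16.2 CPM in the 3 wild-type groups and was not called with IL-33 (log2 0.18 ± 0.10, adjusted p = 0.163). Per kilobase of exon, Flt1 reached 21.2 CPM with IL-4, from 0.304 ± 0.0817 CPM before. In cells labelled ST2-/-, none of the 7 genes was called with IL-33 by edgeR. Set against the wild-type response, 4 responses there were higher and 1 lower, where 22.7% of all genes were called.

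**Figure D3:**
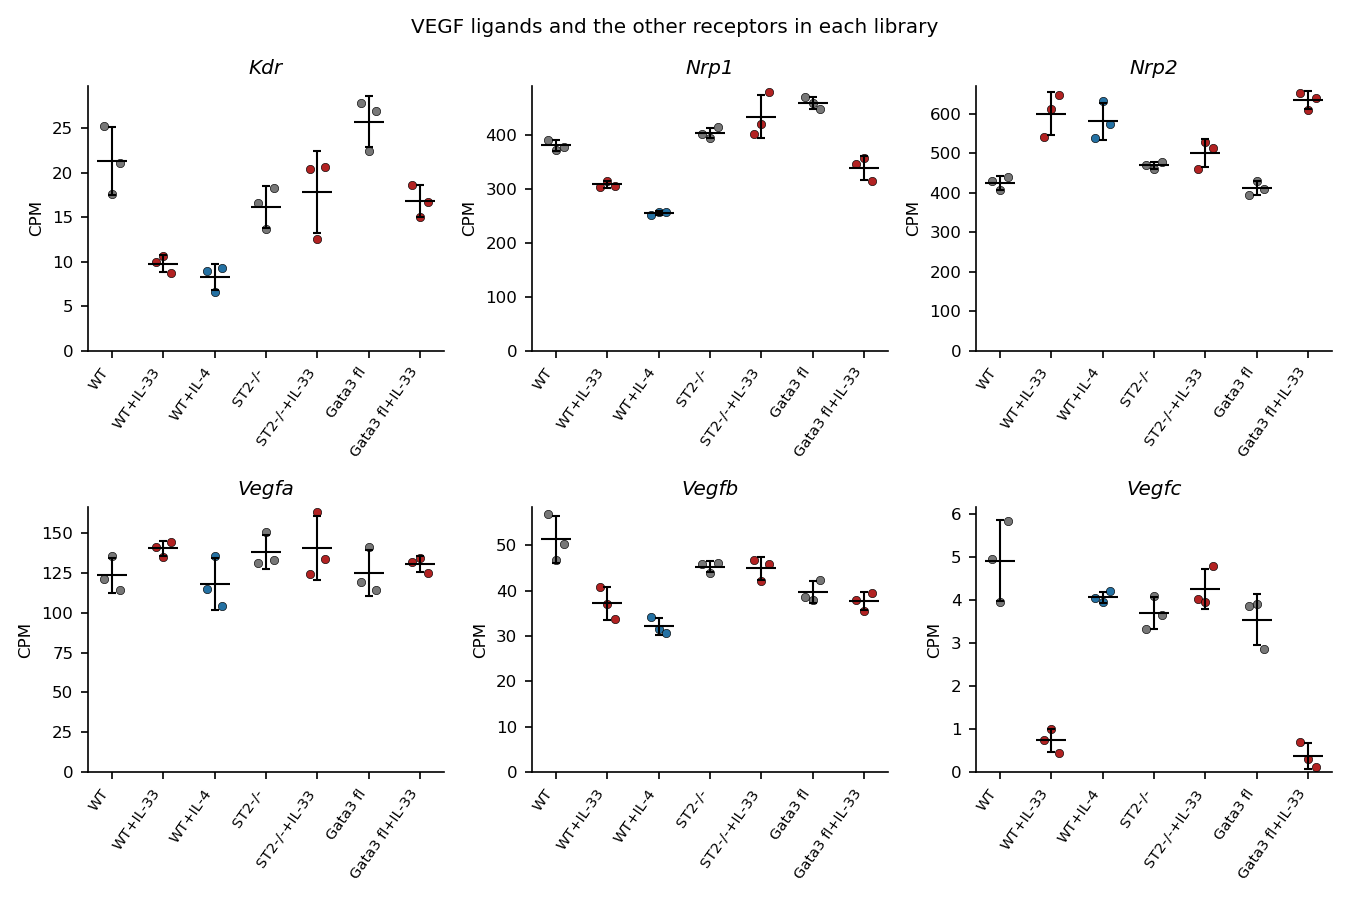
Level in CPM of VEGF ligands and of the receptors other than Flt1 in every library, with the mean and SD of each group of 3; colours as for the 9 genes. Kdr fell from 21.3 to 9.75 CPM with IL-33 and 8.24 CPM with IL-4 in wild-type cells, and Vegfc fell with IL-33 to 0.733 CPM.

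Endothelial cells carry Flt1 at high levels, so the markers of that cell type were read beside it. The summed level of 10 endothelial markers was 192 to 213 CPM in unstimulated wild-type libraries, 127 to 131 with IL-33 and 468 to 521 with IL-4. The list holds Kdr itself, and most of the sum was Vwf, the gene of von Willebrand factor, at 182 ± 8.21, 116 ± 3.44 and 480 ± 28.2 CPM. Tek, Emcn, Esam, Sox18 and Cldn5 were below 0.1 CPM in all 3 groups. Of the 4 markers tested, IL-33 called 1 as higher and 2 as lower, and IL-4 called 2 as higher and 1 as lower. Among all genes 35.4% were called with IL-33 and 47.6% with IL-4. Pecam1 rose from 0.905 ± 0.238 to 2.27 ± 0.184 CPM with IL-33 and 6.14 ± 1.24 CPM with IL-4 (log2 1.33 ± 0.28 and 2.76 ± 0.27, adjusted p = 0.000603 and 1.92e-08). Cdh5 stood at 0.232, 0.489 and 0.625 CPM and was not called. The part of endothelial cells in the change of Flt1 was not tested.

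The platelet-derived growth factors (PDGF) drive fibroblasts and the mural cells of vessels, and their genes responded each in its own way. Pdgfc (ENSMUSG00000028019, chromosome 3, 81036416 to 81214040, plus strand), a ligand of the PDGF receptor alpha that is cut to its active form outside the cell, rose with IL-33. Unstimulated wild-type libraries held 3.42, 4.46 and 3.41 CPM, IL-33 libraries 22.4, 18.7 and 19.3 CPM and IL-4 libraries 3.32, 2.64 and 3.11 CPM. The IL-33 libraries stood apart from both other groups. The rise was 5.35-fold with IL-33 (log2 2.42 ± 0.15, adjusted p = 1.90e-11), and with IL-4 the log2 change was -0.32 ± 0.16 (adjusted p = 0.109). Between the cytokines Pdgfc was 6.68-fold higher with IL-33 (log2 2.74 ± 0.15, adjusted p = 1.51e-12).

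Gata3-floxed cells held Pdgfc at 2.35, 2.60 and 3.18 CPM without cytokine and 24.3, 27.0 and 29.4 CPM with IL-33, the highest of the 7 groups. That rise was 9.95-fold (log2 3.31 ± 0.15, adjusted p = 2.37e-13). Cells labelled ST2-/- held 4.01, 3.65 and 4.55 CPM without cytokine and 2.81, 3.05 and 4.14 CPM with IL-33, which overlapped (log2 -0.29 ± 0.16, unadjusted p = 0.0772 by edgeR). With IL-33 present, Pdgfc was higher in Gata3-floxed than in wild-type cells (log2 0.42 ± 0.13, adjusted p = 0.0446), a call that was lost when any of 4 libraries was left out (adjusted p up to 0.170).

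Pdgfb (ENSMUSG00000000489, chromosome 15, 79995874 to 80014977, minus strand), which recruits pericytes through the PDGF receptor beta, was the gene that fell with IL-33. Wild-type libraries held 49.7, 62.6 and 51.1 CPM without cytokine, 37.6, 40.5 and 41.4 CPM with IL-33 and 62.3, 68.7 and 57.0 CPM with IL-4. The IL-33 libraries lay below both other groups, which overlapped. The fall was 1.37-fold (log2 -0.45 ± 0.14, adjusted p = 0.0133), and it was no longer called without replicate 2 of the unstimulated cells (adjusted p = 0.0782). In Gata3-floxed cells Pdgfb fell from 66.8, 86.1 and 68.9 to 41.2, 49.7 and 35.0 CPM (log2 -0.82 ± 0.14, adjusted p = 6.16e-05). In cells labelled ST2-/- it was 66.5, 91.4 and 78.2 CPM without cytokine and 70.8, 89.7 and 65.0 CPM with IL-33, the highest means of the 7 groups.

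Pdgfa (ENSMUSG00000025856, chromosome 5, 138976014 to 138997370, minus strand), another ligand of the PDGF receptor alpha, was 15.9, 19.7 and 20.1 CPM without cytokine, 24.1, 24.3 and 20.97 CPM with IL-33 and 40.4, 41.5 and 38.1 CPM with IL-4 in wild-type cells. The IL-4 libraries stood well above the rest, and the IL-33 libraries just above the unstimulated ones. The rise was 2.15-fold with IL-4 (log2 1.11 ± 0.11, adjusted p = 1.01e-08) and 1.25-fold with IL-33 (log2 0.32 ± 0.11, adjusted p = 0.0232). The IL-33 call was lost with upper-quartile scaling (adjusted p = 0.0526) and without replicate 1 of the unstimulated cells or replicates 1 or 2 of the IL-33 cells (adjusted p = 0.166, 0.0802 and 0.0999). Of its exon bases, 26.1% are shared with the antisense gene 6330403L08Rik, at 8.54 ± 1.55, 6.20 ± 0.796 and 9.11 ± 1.10 CPM in the same groups, and the strand setting of the counting was not given in the sources used here, so the Pdgfa counts are uncertain. In the other 4 groups the Pdgfa means ran from 19.4 to 23.3 CPM, and no IL-33 effect was called there, though that of Gata3-floxed cells passed the threshold without replicate 3 of their unstimulated libraries (log2 0.29, adjusted p = 0.0401).

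The receptors of these ligands were nearly absent. Pdgfra held 0 reads in 6 of the 7 groups and 17 in unstimulated Gata3-floxed cells, and Pdgfrb stood between 0.916 and 1.56 CPM with no call in any comparison. Of the 4 genes listed beside the PDGF ligands, Pdgfrb alone passed the filter. With IL-33 in wild-type cells, some markers of other cells were also called. Of those tested, 3 of 5 megakaryocyte and platelet markers and 6 of 9 neutrophil markers were called as higher and none as lower. Of 8 dendritic cell markers 3 were higher and none lower (median log2 0.02). Of 6 lymphocyte markers 2 were lower and none higher. Of all genes, 18.5% were higher and 16.9% lower. The summed level of 10 megakaryocyte and platelet markers went from 16.1 to 24.4 CPM in unstimulated wild-type libraries to 168 to 220 CPM with IL-33 and 15.5 to 17.2 CPM with IL-4. Pf4 made up most of it, at 17.7 ± 4.07, 185 ± 24.7 and 11.8 ± 1.39 CPM, while Gp9 and Gata1 were below 0.1 CPM in all 3 groups. That of 10 neutrophil markers went from 26.6 to 29.6 CPM to 179 to 260 CPM with IL-33, mostly Mmp8, while Ly6g was below 0.1 CPM. With IL-4 the neutrophil sum was 26.8 to 28.6 CPM. Of the markers tested, IL-4 called 1 of 5 megakaryocyte and platelet markers as higher and 1 as lower. Of 9 neutrophil markers, 2 were higher and 5 lower with IL-4, where 25.1% of all genes were higher and 22.5% lower. In Gata3-floxed cells with IL-33 the megakaryocyte and platelet sum was 139 to 173 CPM and the neutrophil sum 269 to 314 CPM. In cells labelled ST2-/- with IL-33 they were 23.7 to 37.4 and 25.4 to 35.5 CPM. Stromal markers summed to at most 5.45 CPM in any library, a value of unstimulated Gata3-floxed cells. Against unstimulated wild type, 2 of 6 stromal and 5 of 9 neutrophil markers tested were called as higher in these cells. None of these was called as lower, and 5.60% of all genes were higher. The neutrophil sum in these cells was 47.5 to 51.1 CPM. Of 6 mast cell and basophil markers tested, 3 rose and 1 fell with IL-33 in wild-type cells, and the same counts held in Gata3-floxed cells. The sum of that list in wild-type cells was 7.42 to 11.9 CPM without cytokine and 3.32 to 7.11 CPM with IL-33. The part of such cells in the changes of Pdgfc and Pgf was not tested.

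Igf1 (ENSMUSG00000020053, chromosome 10, 87858265 to 87937042, plus strand) encodes insulin-like growth factor 1, a macrophage product known in muscle and nerve repair. Wild-type libraries held 410, 398 and 404 CPM without cytokine, 1058, 1086 and 1136 CPM with IL-33 and 1171, 1110 and 1101 CPM with IL-4. The cytokine groups overlapped each other and stood far above the unstimulated one. The rise was 2.71-fold with IL-33 (log2 1.44 ± 0.04, adjusted p = 1.45e-16) and 2.79-fold with IL-4 (log2 1.48 ± 0.04, adjusted p = 1.43e-17). The difference between the cytokines was -0.04 ± 0.04 on the log2 scale (adjusted p = 0.433).

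Gata3-floxed cells raised Igf1 less with IL-33, from 377, 370 and 372 to 814, 799 and 765 CPM (log2 1.09 ± 0.04, adjusted p = 1.82e-14). These libraries lay between the unstimulated groups and the wild-type IL-33 libraries with no overlap. With IL-33 present the difference from the wild type was -0.46 ± 0.04 on the log2 scale (adjusted p = 8.24e-08). Cells labelled ST2-/- held 411, 383 and 388 CPM without cytokine and 420, 397 and 413 CPM with IL-33, which overlapped (log2 0.06 ± 0.04, unadjusted p = 0.177 by edgeR).

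Of the 16 other genes of the insulin-like growth factor axis, 7 were tested. With IL-33 3 rose and 1 fell in wild-type cells, and with IL-4 2 rose and 2 fell, with medians of 0.08 and -0.01 on the log2 scale. The shares of all genes called were 35.4% with IL-33 and 47.6% with IL-4. Igfbp4, which binds IGF1 and holds it from its receptor, fell with IL-4 from 458 ± 36.4 to 64.8 ± 5.19 CPM (log2 -2.82 ± 0.10, adjusted p = 1.85e-15) and with IL-33 to 356 ± 21.5 CPM (log2 -0.36 ± 0.10, adjusted p = 0.00527). Igf2r, a receptor that clears IGF2, rose with both (log2 0.64 with IL-33 and 0.88 with IL-4). Igf1r, the signalling receptor of IGF1, fell with IL-4 from 7.10 ± 1.21 to 4.33 ± 0.959 CPM (log2 -0.71 ± 0.19, adjusted p = 0.00342) and stood at 7.50 ± 0.781 CPM with IL-33.

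Hbegf (ENSMUSG00000024486, chromosome 18, 36504927 to 36515805, minus strand) encodes heparin-binding EGF-like growth factor, which is shed from the membrane and drives keratinocytes and smooth muscle cells. Wild-type libraries held 1.67, 3.74 and 2.63 CPM without cytokine, 6.08, 3.96 and 3.77 CPM with IL-33 and 26.2, 29.1 and 19.7 CPM with IL-4. The IL-4 libraries stood apart, while the lowest IL-33 library lay just above the highest unstimulated one. The rise was 9.29-fold with IL-4 (log2 3.22 ± 0.28, adjusted p = 2.24e-09) and 1.71-fold with IL-33 (log2 0.78 ± 0.29, adjusted p = 0.0388). The IL-33 call did not hold with upper-quartile scaling (adjusted p = 0.0518), limma-voom (0.0836), a fit of the compared groups alone (0.0511), or without replicates 1 or 3 of the unstimulated cells or replicate 1 of the IL-33 cells (0.202, 0.0971 and 0.219). In the other genotypes the group means ran from 2.10 to 5.17 CPM and no IL-33 effect was called.

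Of the 18 other genes of the EGF family, its receptors and sheddases, 10 were tested, and 4 rose and 1 fell with IL-33, 5 rose and 2 fell with IL-4 in wild-type cells. Among all genes the shares called were 35.4% and 47.6%. Nrg1, the gene of neuregulin 1, held 0 reads in the unstimulated wild-type libraries and 6.16 ± 1.73 CPM with IL-33, at least 78.7-fold higher when 3 reads are allowed to each unstimulated library (adjusted p = 5.32e-09). In Gata3-floxed cells with IL-33 it stood at 5.28 ± 0.594 CPM, in cells labelled ST2-/- with IL-33 at 0.0236 ± 0.0238 CPM and in wild-type cells with IL-4 at 0.0713 ± 0.103 CPM. Cd9, which binds the membrane form of HB-EGF, rose with IL-4 (log2 1.08 ± 0.06, adjusted p = 1.05e-12) and fell with IL-33 (log2 -0.22 ± 0.06, adjusted p = 0.00515). Adam17, a sheddase of HB-EGF, rose with IL-33 (log2 0.16 ± 0.05, adjusted p = 0.0106) and fell with IL-4 (log2 -0.21 ± 0.05, adjusted p = 0.000660). Egfr, a receptor of HB-EGF, was at most 1.14 CPM in any group mean, and Erbb4, another, held 1 read in all libraries together.

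Tgfb1 (ENSMUSG00000002603, chromosome 7, 25687002 to 25705077, plus strand) encodes transforming growth factor beta 1, made as a latent complex and known for driving matrix production. It was the steadiest of the 9 genes: the group means ran from 344 to 391 CPM. Wild-type libraries held 363, 366 and 366 CPM without cytokine, 387, 370 and 379 CPM with IL-33 and 351, 348 and 332 CPM with IL-4. These groups did not overlap, but the differences were small, with log2 changes of 0.05 ± 0.05 for IL-33 (adjusted p = 0.417) and -0.09 ± 0.05 for IL-4 (adjusted p = 0.125). Between the cytokines Tgfb1 was 1.10-fold higher with IL-33 (log2 0.14 ± 0.05, adjusted p = 0.0182), a call lost without replicate 3 of the IL-4 cells (adjusted p = 0.0874). Per kilobase of exon it was the most abundant of the 9 in unstimulated wild-type cells, at 72.4 ± 0.351 CPM, followed by Igf1 at 40.8 ± 0.589, Pdgfb at 13.1 ± 1.69 and Gdf15 at 11.1 ± 0.967.

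Of 24 genes that carry, activate, receive or restrain the TGF-beta signal, 21 were tested, and 7 rose and 6 fell with IL-33 (median log2 -0.03), 8 rose and 5 fell with IL-4 (median 0.02), with 8 not called in each comparison. Among all genes 35.4% were called with IL-33 and 47.6% with IL-4. Tgfbr1, the gene of the type I receptor, fell from 192 ± 5.29 CPM to 97.8 ± 2.56 CPM with IL-33 and 95.8 ± 4.28 CPM with IL-4 (log2 -0.97 ± 0.05 and -1.001 ± 0.047, adjusted p = 4.44e-13 and 9.45e-14). Tgfbr2, the type II receptor, was 251 ± 7.25, 242 ± 2.71 and 98.3 ± 4.52 CPM in the same groups and fell with IL-4 (log2 -1.35 ± 0.06, adjusted p = 9.96e-14). The difference in Tgfbr2 between IL-33 and IL-4 cells was itself called (log2 1.30 ± 0.06, adjusted p = 2.36e-13). Lrrc32, whose product GARP holds latent TGF-beta at the cell surface, rose from 4.81 ± 1.08 to 20.1 ± 2.79 CPM with IL-33 and 92.7 ± 18.1 CPM with IL-4 (log2 2.06 ± 0.24 and 4.27 ± 0.24). Itgb8, a subunit of an integrin that activates latent TGF-beta, rose with both (log2 1.39 ± 0.37 and 3.39 ± 0.36). Smad7, an inhibitor of the signal, fell with IL-33 (log2 -0.91) and rose with IL-4 (log2 1.16).

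Gdf15 (ENSMUSG00000038508, chromosome 8, 70629393 to 70632456, minus strand) encodes a stress-induced cytokine of the TGF-beta superfamily whose receptor GFRAL is known in the brainstem. It was not called with either cytokine in wild-type cells. The libraries held 22.4, 20.1 and 18.9 CPM without cytokine, 24.3, 13.8 and 11.2 CPM with IL-33 and 24.1, 18.9 and 17.7 CPM with IL-4. All 3 groups overlapped, and the IL-33 libraries were the most spread. The log2 change with IL-33 was -0.32 ± 0.21 (adjusted p = 0.255) and became -0.72 without replicate 1 (adjusted p = 0.00280), so 1 library decided that call.

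Gata3-floxed cells held Gdf15 at 25.2, 21.7 and 21.3 CPM without cytokine and 49.4, 29.3 and 48.9 CPM with IL-33. The IL-33 libraries were the 3 highest of the data set. The rise was 1.87-fold (log2 0.90 ± 0.20, adjusted p = 0.00107). With IL-33 present, Gata3-floxed cells stood 2.59-fold above the wild type (42.6 ± 11.4 against 16.4 ± 6.98 CPM, log2 1.37 ± 0.20, adjusted p = 8.20e-05). In cells labelled ST2-/- the means were 20.9 ± 0.838 CPM without cytokine and 20.7 ± 1.49 CPM with IL-33. Gfral, the receptor gene, held 0 reads in all libraries.

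Of 9 genes listed as inducers or companions of Gdf15 in stress, including its receptor, 8 were tested. With IL-33 3 rose and 2 fell in wild-type cells, and with IL-4 5 rose and none fell, where 35.4% and 47.6% of all genes were called. Trib3 rose with IL-33 from 2.10 ± 0.405 to 4.63 ± 0.434 CPM (log2 1.14 ± 0.20) and with IL-4 to 6.82 ± 1.77 CPM (log2 1.69 ± 0.19). Ddit3, the gene of CHOP, fell with IL-33 (log2 -0.54 ± 0.15, adjusted p = 0.00580), and Atf3 rose with IL-4 (log2 1.20 ± 0.06). In Gata3-floxed cells 4 rose and 1 fell with IL-33, where 33.4% of all genes were called.

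The test of the difference between genotypes in the response to IL-33 called 4 of the 9 genes for cells labelled ST2-/-, against 22.7% of all genes (10.6% higher and 12.1% lower), all 4 with a lower response. The differences were -1.75 ± 0.27 for Flt1 (adjusted p = 4.01e-05), -3.66 ± 1.09 for Pgf (adjusted p = 0.0171), -2.71 ± 0.21 for Pdgfc (adjusted p = 4.05e-09) and -1.38 ± 0.06 for Igf1 (adjusted p = 5.33e-13) on the log2 scale. That of Pgf was lost without replicate 1 or 2 of the unstimulated ST2-/- cells (adjusted p = 0.0510 and 0.0647). Hbegf and Pdgfb had differences of -0.81 ± 0.39 and 0.39 ± 0.19 (adjusted p = 0.149 and 0.164). With IL-33 present in both, cells labelled ST2-/- held less Flt1, Pgf, Pdgfc and Igf1 and more Pdgfb than the wild type, 5 of 9 genes against 37.0% of all genes (17.9% higher and 19.1% lower). That comparison shares the wild-type IL-33 libraries with the response test.

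For Gata3-floxed cells the same test called 3 of the 9 genes, against 1.22% of all genes (0.539% higher and 0.677% lower). Pdgfc and Gdf15 had the larger response (differences of 0.90 ± 0.21 and 1.22 ± 0.29, adjusted p = 0.0371 and 0.0376) and Igf1 the smaller one (-0.35 ± 0.06, adjusted p = 0.00283). Igf1 kept its call in all 12 fits that left out 1 library, Pdgfc in 4 and Gdf15 in 3, with adjusted p up to 0.110 and 0.114 in the rest. The call of Pdgfc was also lost by limma-voom (adjusted p = 0.0541) and that of Gdf15 with the compared groups alone (0.0757). Leaving out any of 6 libraries took the count from 3 to 1: replicates 1 or 3 of unstimulated wild-type cells, replicates 2 or 3 of wild-type cells with IL-33, replicate 2 of unstimulated Gata3-floxed cells, or replicate 3 of Gata3-floxed cells with IL-33. Flt1 had a difference of -1.15 ± 0.30 that missed the threshold (adjusted p = 0.0607 by edgeR) and passed it by DESeq2 (0.0280). The 9 genes of Gata3-floxed cells with IL-33 included 4 that differed from wild-type cells with IL-33, against 11.3% of all genes (5.50% higher and 5.85% lower): Pdgfc and Gdf15 higher, Flt1 and Igf1 lower.

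**Figure D4:**
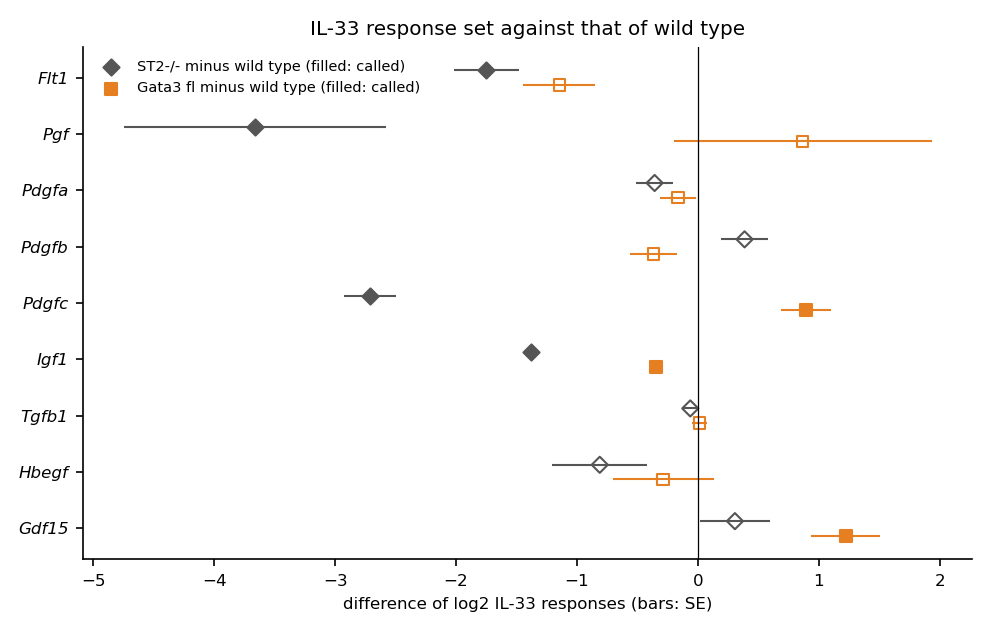
Difference of the log2 response to IL-33 from that of the wild type for each gene, with bars of 1 SE; diamonds are cells labelled ST2-/-, squares Gata3-floxed cells, and filled symbols have an adjusted p under 0.05. Igf1 is below 0 for both genotypes, at -1.38 and -0.35, while Pdgfc is at -2.71 for ST2-/- and 0.90 for Gata3-floxed cells.

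Without cytokine, for ST2-/- against wild type edgeR called 0 of the 9 genes, against 1.35% of all genes (0.871% higher and 0.484% lower). By the same test 2137 of all 14473 genes had an unadjusted p under 0.05, and 4 of the 9 did: Flt1, Pdgfb, Tgfb1 and Hbegf. In each of these 4 the ST2-/- and wild-type libraries did not overlap and the ST2-/- ones were higher, with log2 differences of 0.73 ± 0.20, 0.53 ± 0.14, 0.10 ± 0.05 and 0.95 ± 0.28 (adjusted p = 0.0757, 0.0530, 0.328 and 0.103). These 4 were picked by that p on the same libraries, so the lack of overlap adds no support. The share of all genes without overlap was not computed. DESeq2 called Pdgfb and Hbegf and limma-voom called Pdgfb. By edgeR, Pdgfb and Hbegf passed without replicate 2 of the unstimulated wild-type cells (adjusted p = 0.0311 and 0.0453), and Pdgfb passed without replicate 1 of the unstimulated ST2-/- cells (0.0289). For Gata3-floxed against wild type 1 of the 9 was called, against 9.85% of all genes (5.60% higher and 4.25% lower): Pdgfb was higher, at 74.0 ± 10.6 against 54.5 ± 7.04 CPM (log2 0.44 ± 0.14, adjusted p = 0.0421). That call was lost by DESeq2 (adjusted p = 0.0572) and without replicate 1 or 3 of the wild-type cells or replicate 2 or 3 of the Gata3-floxed cells (adjusted p = 0.182, 0.154, 0.241 and 0.0601).

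The genes whose level over the 7 group means was most like that of each factor were found among 10016 genes with a mean of at least 2 log2 CPM, with Pearson's r over 7 points and no test. Flt1 was most like Adam8 (r = 0.994), which rose from 392 to 1232 CPM with IL-4, and Pdgfa most like Bhlhe40 (r = 0.997). Pgf was most like 1810037I17Rik and Anxa3 (r = 0.995 both). Pdgfc was most like Btg1 (r = 0.995), Relt (0.993) and Vcan (0.989), the gene of the matrix proteoglycan versican, which went from 4.11 to 74.6 CPM with IL-33 in wild-type cells and was 3.95 CPM with IL-4. Igf1 was most like Sertad1 (r = 0.998), Hbegf most like Emp2 (r = 0.984), Pdgfb most like Rps15 (r = 0.992), Tgfb1 most like Dopey1 (r = 0.976) and Gdf15 most like 9130401M01Rik (r = 0.984). The 7 means share the libraries and, for Pdgfb, Tgfb1 and Gdf15, span a narrow range of levels. For Flt1, Pdgfa and Hbegf the IL-4 group stood apart above all others, so r rests largely on that 1 group.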

How the data were processed

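RNA was measured by paired-end sequencing (150 bases) in 21 libraries. The deposited values are read counts per gene, and per the submitters' processing notes HISAT2 2.0.5, HTSeq 0.6.1 and DESeq2 1.22.2 were used with GRCm38 (mm10). The annotation and the strand setting of the counting are not given in the sources used here. Groups and replicate numbers came from the sample titles, read with the other labels. Counts of 47069 genes were fitted with edgeR 4.0.16 in R 4.3.3 (quasi-likelihood, TMM scaling, filterByExpr with a minimum count of 10), with 1 mean for each of 7 groups, all 21 libraries and 14 residual degrees of freedom. The filter kept 14473 genes, with no library losing more than a small part of its reads (99.97% kept in the lowest). P-values of each of 11 comparisons were adjusted over all genes tested (Benjamini-Hochberg). Spread beyond counting was 0.0860 as a coefficient of variation (common dispersion 0.00740). Counting intervals are exact at 95% and cover counting error only.

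Alternatives were RLE and upper-quartile scaling, no filter on low counts, DESeq2 1.42.0, limma-voom (limma 3.58.1), a replicate block, a fit of the compared groups alone, and leaving out each library. Positions came from GENCODE M21 (46574 of 47069 identifiers matched) and sequences from RefSeq on GRCm38.p6. The 9 genes, the lists of pathway genes and markers and the tests were chosen with earlier results of these data known. Vegfd was taken as Figf, its older symbol in the table, and of 2 rows with 1 symbol (Itgam, Ltbp4) the row with more counts was used. Named beside the 9 genes are their receptors, up to 5 called genes with the largest change of each list, and for likeness up to 3 genes with the highest r. Adam17, Vegfa, Angptl2, Xist and 6330403L08Rik were named outside that rule, after their values were seen. Same-numbered libraries of different groups had correlated deviations from their group means of -0.0263 to 0.110, over 0.1 in 2 of 39 pairs, so the numbers were not taken to pair libraries.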

Additional observations from a re-analysis of the deposited data

Results flagged for a closer look

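The response to IL-33 differed between genotypes by the interaction test of edgeR in 7 cases among the 9 genes. Cells labelled ST2-/- had a lower response than the wild type for Flt1 (log2 difference -1.75), Pgf (-3.66), Pdgfc (-2.71) and Igf1 (-1.38). In the wild type each of these genes rose in 3 of 3 libraries above every unstimulated library. In cells labelled ST2-/- the libraries with and without IL-33 overlapped for all 4. These genes were picked by that test on the same libraries, so this adds no support to it. Nor is it particular to them: all 9 genes overlapped in cells labelled ST2-/-, and in the wild type only Gdf15 did. The share of all genes without overlap was not computed. Gata3-floxed cells had a higher response for Pdgfc (0.90) and Gdf15 (1.22) and a lower one for Igf1 (-0.35). Those of Pdgfc and Gdf15 depend on single libraries, as given above, and genotype cannot be told apart from sex in the Gata3-floxed libraries.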

How the results depend on the processing

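Of 99 results (9 genes in 11 comparisons), 41 were called and 31 of these kept their direction and call under every alternative run, which were 7 other settings and leaving out each library. RLE scaling changed no call, upper-quartile scaling lost 2 and gained 1, DESeq2 lost 1 and gained 5, limma-voom lost 2 and gained 1, and the fit of the compared groups alone lost 2 and gained 2. Without the filter on low counts 18 calls were gained and none lost. The number of the 9 genes called went without the filter from 4 to 7 for the response of ST2-/- cells, from 3 to 5 for that of Gata3-floxed cells, from 0 to 3 for unstimulated ST2-/- against wild type and from 1 to 3 for unstimulated Gata3-floxed against wild type. For unstimulated ST2-/- against wild type it was 2 by DESeq2, 1 by limma-voom and 1 with the compared groups alone, and for unstimulated Gata3-floxed against wild type 2 by DESeq2 (Igf1 and Pdgfc). Over all genes, calls without the filter went from 3284 to 3271, 176 to 555, 196 to 875 and 1425 to 1793 in the same 4 comparisons, in that order. They were among 14473 genes with the filter and 24667 without. Unstimulated ST2-/- against wild type had 409 calls over all genes by DESeq2, 220 by limma-voom and 166 with the compared groups alone. For unstimulated Gata3-floxed against wild type DESeq2 called 1741. The cause was not tested.

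The replicate numbers were not taken to pair the libraries. With a replicate block 7 calls were gained and none lost: the count was 3 for unstimulated ST2-/- against wild type and 2 for unstimulated Gata3-floxed against wild type, and Flt1 passed in the response of Gata3-floxed cells (adjusted p = 0.0269). Over all 14473 genes the block took the calls in these 3 comparisons from 196 to 590, 1425 to 1800 and 176 to 355.

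Leaving out 1 library gave counts of 1 to 3 for the response of Gata3-floxed cells, 0 to 2 for unstimulated ST2-/- and 0 to 1 for unstimulated Gata3-floxed against wild type. Over all genes these fits called 52 to 273, 54 to 208 and 658 to 1239. Leaving out 1 library also turned the direction of 16 results on the log2 scale, none of which was called. For IL-33 in ST2-/- cells the changes ranged from -0.29 to 0.022 for Flt1, -1.84 to 1.08 for Pgf (-0.54 by limma-voom), -0.076 to 0.016 for Pdgfa, -0.22 to 0.054 for Pdgfb, -0.040 to 0.011 for Tgfb1, -0.37 to 0.16 for Hbegf and -0.050 to 0.045 for Gdf15. Gdf15 ranged from -0.18 to 0.066 with IL-4, and Tgfb1 from -0.020 to 0.067 in the response of Gata3-floxed cells. Unstimulated, ST2-/- against wild type ranged from -0.26 to 0.60 for Pgf and -0.030 to 0.095 for Gdf15, and Gata3-floxed against wild type from -0.036 to 0.035 for Tgfb1. With IL-33, ST2-/- against wild type ranged from -0.20 to 0.39 for Hbegf, and Gata3-floxed against wild type from -0.093 to 0.078 for Pdgfa, -0.058 to 0.20 for Pdgfb and -0.0014 to 0.054 for Tgfb1. Depth limits Pgf, which held 0 to 16 reads in each unstimulated or ST2-/- library.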

Other observations

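Of 21 further genes linked to repair and vessel growth, 15 were tested. With IL-33 6 rose and 2 fell in wild-type cells (median log2 0.31), and with IL-4 9 rose and 2 fell (median 0.28). Of all genes tested, 35.4% were called with IL-33 and 47.6% with IL-4. Edn1, the gene of the vasoconstrictor endothelin 1, held 1 read over the 3 unstimulated wild-type libraries, 277 reads with IL-33 (2.42 ± 0.924 CPM) and 2392 reads with IL-4 (20.6 ± 5.77 CPM). The ratio to no cytokine was 279 with IL-33 (95% counting interval 49.7 to 11076) and 2332 with IL-4 (418 to 92138). It stood at 0.672 ± 0.401 CPM in Gata3-floxed cells with IL-33 and at 0.0310 ± 0.0352 CPM in cells labelled ST2-/- with IL-33. Inhba, which encodes the activin A subunit, rose from 0.0786 ± 0.0270 to 1.10 ± 0.402 CPM with IL-33 and 4.03 ± 1.43 CPM with IL-4 (log2 3.75 ± 0.73 and 5.63 ± 0.70, adjusted p = 0.000283 and 5.42e-07). Bmp2 fell with IL-4 from 4.26 to 0.560 CPM (log2 -2.99 ± 0.25, adjusted p = 1.17e-09). Angptl2 fell with IL-33 (log2 -0.30 ± 0.09) and rose with IL-4 (log2 2.32 ± 0.09). In cells labelled ST2-/- IL-33 called none of the 15 genes by edgeR.

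Replicate 2 held the highest level of Pdgfb in 6 of the 7 groups and of Flt1 and of Hbegf in 5 of the 7. Replicate 1 held the highest level of Igf1 and of Gdf15 in 6 groups and of Pgf in 5. For Pdgfa and Pdgfc replicate 3 was highest in 4 groups, and for Tgfb1 no number was highest in more than 3. The same counts over all genes were not computed, so these cannot show whether the numbers mark a shared batch.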
